A study of Mus musculus with 3 samples.

Results

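Gas6, Pros1, Axl, Tyro3 and Mertk encode the ligands and receptors of the TAM system, and their UMIs (unique molecular identifiers, each standing for 1 captured transcript) were followed through the cell classes of the mouse kidney cortex with and without ischemia-reperfusion injury (IRI). The genes were taken as the members of that pathway, with earlier results of these data known, and all 5 were found among the 22535 genes of the tables. Each of the 3 libraries was made on the BD Rhapsody platform from WT1CreERT2; Rosa26-tdT fl/+ mice, in which tamoxifen turns on the red protein tdTomato (tdT) in cells that express Wt1 and in their descendants. Cre was driven from the Wt1 locus, which is active in podocytes and in some parietal epithelial cells, so that the label marks those lineages. The study also reported tdT+ cells in proximal tubules after severe IRI, and could not fully exclude new expression of WT1 there. The Sham library was a mixture of sorted tdT+ and tdT- cells from mice that had sham surgery. IRI24h-TDN was such a mixture from mice killed 24 h after a severe IRI of both kidneys, and IRI24h-TD contained the tdT+ cells without tdT- cells from the same time. Several kidneys were used per group, and there was 1 library per condition, so no difference below has a replicate check and no p-value is given. IRI24h-TD differs from IRI24h-TDN in the sort and was not used as its replicate, and whether the 2 shared animals is not given in the sources used here.

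Gas6 and protein S, the product of Pros1, are secreted proteins that carry a vitamin K-dependent domain binding phosphatidylserine on the surface of dying cells. Their other end binds TAM receptors. These receptor tyrosine kinases are Tyro3, Axl and Mertk, and Gas6 can engage all of them. The receptors in turn drive the uptake of dying cells and dampen inflammatory signalling, and protein S is also an anticoagulant cofactor in plasma. In tissues Mertk is best known from macrophages, where it serves the clearance of dying cells, and Gas6 from cells of vessels and from fibroblasts, while the outer part of Axl can be cut from the cell surface by proteases.

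The sequence just before the start of each gene is one thing that the members can be compared on apart from their UMIs. The 250 bases before the start that RefSeq gives (GRCm38.p6) were taken, and those of Gas6, Axl and Mertk are shown, 5′ to 3′ on the strand of the gene, since the results below turn on these 3 genes. Capitals mark the letters GGGCGG, the GC box bound by Sp1-type factors, or their reverse complement.
Gas6 (chr8:13494536-13494785, minus strand): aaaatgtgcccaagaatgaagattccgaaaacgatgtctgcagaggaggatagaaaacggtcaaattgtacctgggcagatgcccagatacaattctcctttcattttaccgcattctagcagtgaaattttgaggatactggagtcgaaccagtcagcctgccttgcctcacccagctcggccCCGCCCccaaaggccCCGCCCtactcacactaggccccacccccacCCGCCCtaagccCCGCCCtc
Axl (chr7:25788734-25788983, minus strand): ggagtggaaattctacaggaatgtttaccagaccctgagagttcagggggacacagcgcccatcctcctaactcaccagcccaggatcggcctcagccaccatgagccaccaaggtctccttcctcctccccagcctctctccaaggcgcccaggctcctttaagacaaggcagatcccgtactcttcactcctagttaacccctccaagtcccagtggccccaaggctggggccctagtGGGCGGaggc
Mertk (chr2:128698665-128698914, plus strand): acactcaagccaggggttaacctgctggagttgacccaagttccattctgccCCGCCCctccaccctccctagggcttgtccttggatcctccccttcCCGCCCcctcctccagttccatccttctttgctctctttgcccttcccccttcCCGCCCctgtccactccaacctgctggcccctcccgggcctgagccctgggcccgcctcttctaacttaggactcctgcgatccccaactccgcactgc
By GENCODE M21 (GRCm38), Gas6 lies at chr8:13465374-13494490 on the minus strand, Pros1 at chr16:62854307-62929346 on the plus strand, Axl at chr7:25757273-25788705 on the minus strand, Tyro3 at chr2:119797733-119818104 on the plus strand and Mertk at chr2:128698956-128802894 on the plus strand. The RefSeq and GENCODE starts are not the same for each gene, and the RefSeq window of Tyro3 (chr2:119799264-119799513) lies inside the gene as GENCODE places it. Mertk overlaps the antisense gene Gm14011 (107 UMIs in podocyte-like cells) and Gas6 overlaps Tmem255b on the other strand (9 UMIs), and whether the counting used the strand is not given in the sources used here.
The GC box was found 4 times before Gas6, 5 times before Pros1, 1 time before Axl, 3 times before Tyro3 and 3 times before Mertk, read on both strands and with overlapping matches counted. Of the 32851 promoters in the table, 32.7% held at least 1 such match. The GC content of these stretches was 54.8% for Gas6, 64.4% for Pros1, 60.0% for Axl, 73.2% for Tyro3 and 63.6% for Mertk, against a median of 52.4% over all promoters. The other motifs searched, TGANTCA of AP-1 (6.75% of all promoters), ACGTG of the hypoxia response element (16.6%), GCGTGGG of Egr factors (4.30%) and TATAAA (12.4%), had no match in any of the 5 stretches, which says only that these letters were not in these windows.

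Of the 30008 barcodes in the tables, 26760 passed limits of at least 200 genes and no more than 50% mitochondrial UMIs, namely 8047 from Sham, 9024 from IRI24h-TDN and 9689 from IRI24h-TD. The Sham and IRI24h-TDN tables each had 10062 barcodes and 20800 genes, and whether either was cut to this size is not known. The median depth of the kept cells was 7746, 9151 and 9529 UMIs in that order. Clusters were named from marker lists and are called by the list with "-like" added. Podocyte-like cells were the largest class (18458 cells), followed by tubule-like (3703), parietal-like (990), macrophage-like (981), mural-like (759) and endothelial-like cells (313). All 10 podocyte markers and 8 of 9 parietal markers were higher in their class than outside it. Only 11 macrophage-like, 14 mural-like and 7 endothelial-like cells were read in IRI24h-TD, so values for these classes are given from the other 2 libraries. Between 102 and 114 barcodes were shared by each pair of libraries. A level is the number of UMIs of a gene per 1000000 UMIs of the same class and library (CPM), with an exact Poisson 95% interval that covers counting error only.

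Podocyte markers were read in all classes: the median podocyte marker had a UMI in 37.9% of cells outside the podocyte-like class. Beside the levels elsewhere, an implied level is therefore given, which is the level in podocyte-like cells of the library times the ratio of the summed podocyte markers in the class to that in podocyte-like cells. It states what a class would show if all UMIs of the gene in it came along with podocyte RNA. All UMIs of these markers in the class count as podocyte RNA for this, which was not tested. Where a class makes any of these markers itself, its implied level is too high. The ratio was largest in endothelial-like cells (36.1% in Sham, 20.3% in IRI24h-TDN) and mesangial and pericyte-like cells (21.4% and 20.3%). The part of podocyte RNA in any one result was not tested further.

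Gas6, the ligand that can engage all the TAM receptors, was read mainly outside the podocytes. Over the libraries it was highest in endothelial-like cells among the classes of at least 100 cells (301 CPM, or 191 CPM with classes from each cell's own markers). In endothelial-like cells its level was 332 CPM in Sham (95% interval 292 to 377) and 260.4 CPM in IRI24h-TDN (217 to 309). The intervals of these 2 levels overlapped, and the log2 ratio was -0.35 (-0.67 to -0.04), within 2-fold. Under the other settings tried it ranged from -0.70 to -0.08. The implied levels there were 6.53 and 0.893 CPM.

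In Sham the endothelial-like level was followed by that of parietal-like cells (234 CPM), distal convoluted tubule-like cells (224 CPM) and ascending limb-like cells (223 CPM), and the intervals of these 3 classes overlapped. Proximal tubule-like (157 CPM) and intercalated-like cells (149 CPM) came next, again with overlapping intervals. Mesangial and pericyte-like (99.5 CPM), connecting tubule and principal-like (76.5 CPM) and macrophage-like cells (74.3 CPM) were lower, and smooth muscle and renin-like cells had 38.6 CPM. Podocyte-like cells had 18.1 CPM, and no Gas6 UMI was found in 87 lymphocyte-like cells of Sham, where the upper limit of the interval was 7.08 CPM. By their own markers only 58 of the 164 cells of that cluster were lymphocyte-like, and 80 were monocyte and dendritic-like. Gas6 was thus read in each nephron segment sampled, and most weakly in podocyte-like cells among the cells of the nephron.

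Gas6 was lower after IRI in parietal-like cells, a class named for the cells that line the capsule around the glomerulus. Of its 990 cells, 576 were in a cluster that also carried proximal tubule genes. By their own markers 198 of the 990 were placed with tubule. Gas6 in this class was 234 CPM in Sham, 93.3 CPM in IRI24h-TDN and 83.0 CPM in IRI24h-TD. Both injured libraries lay below Sham with no overlap of the intervals, and the level in IRI24h-TDN was 0.399 times that in Sham (0.346 to 0.457), a log2 ratio of -1.33. Without the correction between libraries, when other cells also carried the name, the log2 ratio was -0.71, within 2-fold. The share of parietal-like cells with a Gas6 UMI, after thinning each cell to 2400 UMIs, was 36.8%, 20% and 18.1% in the same order. In the tubule the level differed less. It was 157, 150.4 and 152 CPM in proximal tubule-like cells and 224, 214 and 255 CPM in distal convoluted tubule-like cells in Sham, IRI24h-TDN and IRI24h-TD, and in these segments the intervals overlapped. Ascending limb-like cells had 223 CPM in Sham and 127 CPM in IRI24h-TDN (log2 ratio -0.81, -1.05 to -0.57), and connecting tubule and principal-like cells 76.5 and 42.5 CPM (-0.85, -1.17 to -0.52), both lower but by less than 2-fold. Macrophage-like cells had 74.3 and 95.7 CPM.

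In podocyte-like cells Gas6 was 18.1 CPM in Sham, 4.40 CPM in IRI24h-TDN and 3.34 CPM in IRI24h-TD, a log2 ratio of -2.04 for IRI24h-TDN to Sham. A single cluster of 743 podocyte-like cells that also carried parietal genes (cluster 8) held 481 of the 708 UMIs in Sham (67.9%), 95 of 224 in IRI24h-TDN (42.4%) and 159 of 289 in IRI24h-TD (55.0%). There Gas6 was 203, 74.8 and 58.6 CPM, close to the parietal-like levels, while the other podocyte-like clusters had 6.17, 2.60 and 1.55 CPM. Without cluster 8 the log2 ratio was -1.25 (-1.57 to -0.93). The barcodes left out for having under 200 genes had 7.77 CPM of Gas6 in Sham and 11.6 CPM in IRI24h-TDN. These values lie above those of the other podocyte-like clusters. How much Gas6 RNA of other classes was carried into podocyte-like cells was not tested. Of the cells of cluster 8, 325 were from Sham, 145 from IRI24h-TDN and 273 from IRI24h-TD, so that its share of the podocyte-like cells also differed between the libraries.

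Among the 252 cells of a cluster led by fibroblast genes, which did not meet the naming rule, the cells with UMIs of at least 2 of Pdgfra, Dcn, Lum, Dpt and Mfap5 had 2066 CPM of Gas6 in Sham (8 cells) and 1127 CPM in IRI24h-TDN (38 cells). These cells were picked out after the values were seen, and their number is small. Their levels lay above those of each named class in the same library.

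**Figure D1:**
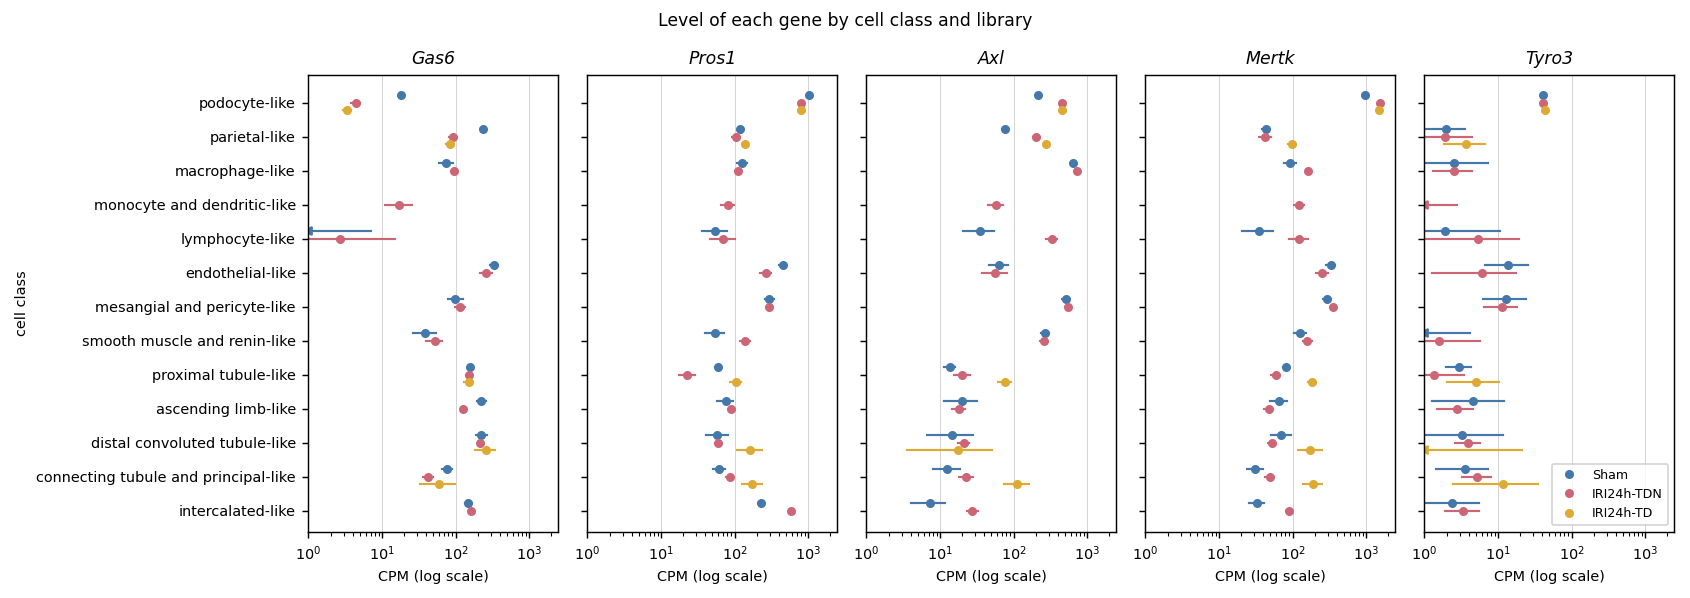
Level of the 5 genes (CPM, log axis) by cell class, with a point for each library that holds at least 20 cells of the class and bars for the exact Poisson 95% interval; triangles at the left edge stand for values under 1 CPM. Gas6 lies lowest in podocyte-like cells among the cells of the nephron, Mertk and Tyro3 are highest there, and Axl is highest in macrophage-like cells (651 and 733 CPM).

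Pros1, the gene of protein S, had its highest level in podocyte-like cells, where it was 1039 CPM in Sham, 787 CPM in IRI24h-TDN and 799.5 CPM in IRI24h-TD. The injured libraries lay close together and below Sham, at 0.758 times its level (0.747 to 0.768) for IRI24h-TDN, which is within the 2-fold limit used here. A Pros1 UMI was found in 96.8%, 98.1% and 98.1% of podocyte-like cells, and in 85.0%, 79.4% and 80.0% of them after thinning. In tubule-like cells the unthinned share was 27.0% in Sham and 47.1% in IRI24h-TDN, at a median of 7568 and 12308 UMIs per cell against 8255 and 9400 in podocyte-like cells.

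Intercalated-like cells, the acid-base regulating cells of the collecting system, stood apart from the rest of the tubule. Pros1 was 229 CPM in Sham (209 to 250), 579 CPM in IRI24h-TDN (558 to 601) and 442 CPM in the 13 cells of IRI24h-TD, against implied levels of 41.3, 54.6 and 153 CPM. The level in IRI24h-TDN was 2.53 times that in Sham (2.29 to 2.79). In this class 7.48% of 8978 genes were at least 2-fold higher in IRI24h-TDN and 4.69% at least 2-fold lower. Pros1 was higher in IRI24h-TDN in both intercalated-like clusters, but by at least 2-fold in only 1 of them. The cluster led by Slc26a4, the chloride-bicarbonate exchanger of type B and non-A cells, had 162 and 638 CPM. The one led by Slc4a1, the exchanger of type A cells, had 265 and 451 CPM, within 2-fold. The first held 53 cells in Sham and 210 in IRI24h-TDN, and the second 125 and 137. The make-up of the class thus also differed between these libraries.

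In smooth muscle and renin-like cells Pros1 was 54.6 CPM in Sham and 138 CPM in IRI24h-TDN, a 2.54-fold difference (1.83 to 3.57), with implied levels of 19.2 and 23.2 CPM. There 5.36% of genes were at least 2-fold higher and 3.7% lower. Mesangial and pericyte-like cells had 297 and 293 CPM with overlapping intervals. In proximal tubule-like cells Pros1 was 59.1 CPM in Sham, 22.5 CPM in IRI24h-TDN and 104 CPM in IRI24h-TD, which lay near the implied 47.0, 25.7 and 93.3 CPM, so that the order of the libraries there was also that of the podocyte markers. The log2 ratio of IRI24h-TDN to Sham was -1.40, in a class where 14.7% of genes were at least 2-fold higher and 12.7% lower. Endothelial-like cells had 454 CPM in Sham and 266 CPM in IRI24h-TDN (implied 375 and 160 CPM). Parietal-like cells had 119, 105 and 138 CPM.

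For the whole tubule-like class Pros1 was 84.5 CPM in Sham and 170.4 CPM in IRI24h-TDN, 2.02 times as high. The class was made up differently in the 2 libraries, with 1075 proximal tubule-like cells in Sham and 161 in IRI24h-TDN, and the segments are therefore the better measure.

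Axl was at least 2-fold higher after IRI in podocyte-like cells and, under the main clustering, in parietal-like cells. The same limit was passed in intercalated-like cells and in the lymphocyte-like cluster, which are taken up below. In podocyte-like cells, the filtering cells of the glomerulus, Axl was 214 CPM in Sham (209 to 218), 448 CPM in IRI24h-TDN (443 to 454) and 457 CPM in IRI24h-TD (452 to 462). Both injured libraries lay above Sham, and IRI24h-TDN was 2.10-fold higher (2.04 to 2.15), a log2 ratio of 1.07. An Axl UMI was found in 67.7% of podocyte-like cells in Sham and in 93.6% and 93.5% in the IRI libraries, and after thinning in 35.7% (34.3 to 37.1), 62.2% (60.9 to 63.5) and 63.1% (62.0 to 64.1). In tubule-like cells, whose Axl level was 12.9, 21.9 and 76.8 CPM against implied levels of 9.62, 18.0 and 56.5 CPM, the thinned shares were 2.19%, 3.58% and 10.9%. Per podocyte-like cell the median was 1.43 Axl UMIs per 10000 UMIs in the Sham library, against 4.0 and 4.1 in the IRI libraries.

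In parietal-like cells Axl was 76.4 CPM in Sham (69.3 to 84.0), 200.4 CPM in IRI24h-TDN (184 to 218) and 279.9 CPM in IRI24h-TD (261 to 300), with implied levels of 9.91, 14.7 and 29.1 CPM. The injured libraries again lay above Sham, by 2.62-fold in IRI24h-TDN (2.30 to 2.99), a log2 ratio of 1.39. The thinned shares of cells with an Axl UMI were 16.2%, 33.0% and 45.2%. IRI24h-TD lay above IRI24h-TDN by a log2 difference of 0.48 (0.32 to 0.64), which is within 2-fold.

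The parietal-like class had 2 clusters, and Gas6 and Axl differed from Sham in opposite directions in each. In the order Sham, IRI24h-TDN, IRI24h-TD, cluster 13 had 226.5, 81.5 and 87.1 CPM of Gas6, while its Axl was 116, 409 and 428 CPM. Cluster 11, which also carried proximal tubule genes, had 241, 96.7 and 81.1 CPM of Gas6 and 40.0, 139 and 213 CPM of Axl. Pbk, Ube2c and Hmmr were among its leading genes. With finer clustering (resolution 2) these genes were among those leading a separate parietal-like cluster, with cell counts of 16, 27 and 31. In the IRI libraries it had 32.6 and 34.6 CPM of Gas6 and 310 and 322 CPM of Axl. The cluster with proximal genes then had 237, 127 and 119 CPM of Gas6, within 2-fold, and 27.2, 75.9 and 126 CPM of Axl. The part of such cells in the values of cluster 11 was not tested. Cluster 8, podocyte-like with parietal genes, had 334, 701 and 607 CPM of Axl, above the other podocyte-like clusters (206, 442 and 452 CPM). Among parietal-like cells with at least 1 Wt1 UMI, Gas6 was 237, 99.3 and 85.2 CPM and Axl 80.9, 193 and 263 CPM. Removing the 6% of cells with the highest doublet scores took 8.94% of cluster 13, 13.4% of cluster 11 and 5.92% of cluster 8. The names of these cells depended on the correction between libraries. Without it the log2 ratio of Axl over the parietal-like class was -0.38, when the class held 323 cells of cluster 8 in Sham and 52 in IRI24h-TDN, and 1 and 152 proximal tubule-like cells, and of its 3 clusters seen in both libraries, Axl went from 338 to 574 CPM and from 127 to 390 CPM in 2 and from 127 to 79.8 CPM in the third, which held 55 cells of Sham and 299 of IRI24h-TDN. With 1 more gene let into the clustering, the class took in 214 cells of cluster 8 from Sham and 51 from IRI24h-TDN, and the log2 ratio of Axl was 0.98, just within 2-fold, while that of Gas6 was -1.18.

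**Figure D2:**
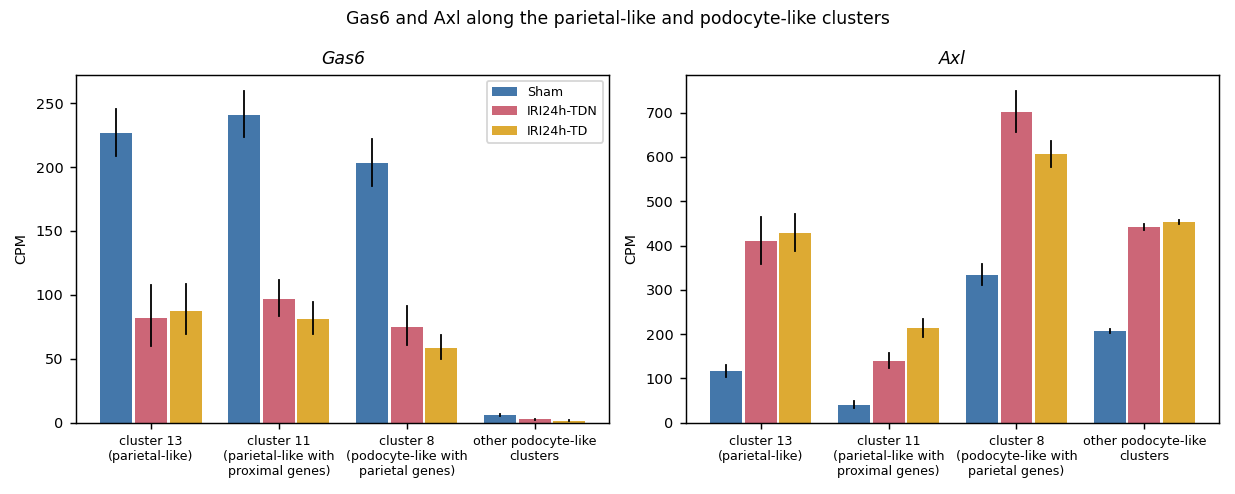
Gas6 (left) and Axl (right) in CPM in the parietal-like clusters 13 and 11, in cluster 8 of the podocyte-like class and in the other podocyte-like clusters, with bars from 0 for each library and lines for the exact Poisson 95% interval. In the first 3 groups the Sham bar is the tallest for Gas6 (203 to 241 CPM) and the shortest for Axl (40.0 to 334 CPM), and in the other podocyte-like clusters Gas6 is near 0 in all libraries.

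Macrophage-like cells had the highest Axl of the classes, 651 CPM in Sham (606 to 699) and 733 CPM in IRI24h-TDN (709 to 758), against implied levels of 13.1 and 34.3 CPM. The ratio was 1.13-fold (1.04 to 1.22). All genes of this class had a median log2 ratio of 0.28, and with edgeR's TMM scaling, which centres on most genes, the log2 ratio of Axl turned from 0.17 to -0.13, so no direction is given for it. After thinning 71.3% and 79.8% of macrophage-like cells had an Axl UMI. The difference between macrophage-like and podocyte-like cells was thus 3.04-fold in Sham (2.82 to 3.28) and 1.63-fold in IRI24h-TDN (1.58 to 1.69).

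Mural cells were the other class with much Axl. Mesangial and pericyte-like cells had 511 CPM in Sham and 544 CPM in IRI24h-TDN, and smooth muscle and renin-like cells 268 and 255 CPM, with overlapping intervals in both types. The monocyte and dendritic-like class had 57.1 CPM in IRI24h-TDN. Endothelial-like cells had 63.7 and 56.5 CPM, below the implied 77.2 and 90.95 CPM. In the tubule segments of Sham and IRI24h-TDN Axl was 7.20 to 27.6 CPM, near the implied levels. Intercalated-like cells had 7.20 CPM in Sham and 27.6 CPM in IRI24h-TDN, a 3.84-fold difference, where the implied levels were 8.49 and 31.1 CPM. The cluster named lymphocyte-like had 34.6 CPM in Sham and 329 CPM in IRI24h-TDN, but by their own markers 80 of its 164 cells were monocyte and dendritic-like, so this is not a value of lymphocytes. Of all genes in that cluster 11.4% were at least 2-fold higher and 7.96% lower.

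Mertk had its highest level in podocyte-like cells and not in macrophage-like cells. In podocyte-like cells it was 960.2 CPM in Sham (951 to 970), 1519.7 CPM in IRI24h-TDN (1509 to 1530) and 1479 CPM in IRI24h-TD (1471 to 1487). Both injured libraries lay above Sham, and IRI24h-TDN was 1.58-fold higher (1.56 to 1.60), a log2 ratio of 0.66 that stays within the 2-fold limit. A Mertk UMI was found in 96.4%, 99.5% and 99.5% of podocyte-like cells, and in 84.0%, 95.3% and 95.2% after thinning. The thinned share in tubule-like cells was 10.7% in Sham and 7.11% in IRI24h-TDN. IRI24h-TD and IRI24h-TDN differed by a log2 ratio of -0.04. In cluster 8 Mertk was 466, 848 and 1001 CPM.

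Elsewhere the level of Mertk was mostly within 2-fold of the implied level. Of 27 class or segment sums outside the podocyte-like class, only 14 had intervals that held the implied level. The median ratio of the measured to the implied level was 1.06. Proximal tubule-like cells of Sham had 80.8 CPM (75.1 to 86.9), above the implied 43.4 CPM. In parietal-like cells Mertk was 44.2, 42.2 and 97.6 CPM, with implied levels of 44.5, 49.9 and 94.2 CPM. Macrophage-like cells had 92.9 CPM in Sham and 162 CPM in IRI24h-TDN, above the implied 58.6 and 116 CPM, and the thinned share of these cells with a Mertk UMI was 9.57% and 16.2%. The sums at least 2-fold over the implied level were 2 in number, both of smooth muscle and renin-like cells, with 126 CPM in Sham and 159 CPM in IRI24h-TDN against 17.8 and 44.7 CPM. Mesangial and pericyte-like cells had 293 and 358 CPM against 206 and 309 CPM. In intercalated-like cells Mertk was 32.6 CPM in Sham and 90.4 CPM in IRI24h-TDN, a log2 ratio of 1.47, with implied levels of 38.1 and 105 CPM, and in the lymphocyte-like cluster it was 34.6 and 121 CPM with implied levels of 32.0 and 123 CPM. In both, a difference past 2-fold thus went with a like difference in the podocyte markers.

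Tyro3, the member best known from the nervous system, was weak and was read in podocyte-like cells, with 41.4 CPM in Sham (39.4 to 43.5), 40.7 CPM in IRI24h-TDN (39.0 to 42.5) and 44.0 CPM in IRI24h-TD (42.6 to 45.4). The levels in Sham and IRI24h-TDN overlapped, with a log2 ratio of -0.02 (-0.12 to 0.07). After thinning 8.6%, 8.92% and 9.84% of podocyte-like cells had a Tyro3 UMI, and 0.596% and 0.672% of tubule-like cells in Sham and IRI24h-TDN. In parietal-like cells Tyro3 was 1.99, 1.92 and 3.67 CPM. Of the 27 sums outside the podocyte-like class, 23 had intervals holding the implied level. At this depth Tyro3 could thus not be told apart from the implied level in most classes.

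**Figure D3:**
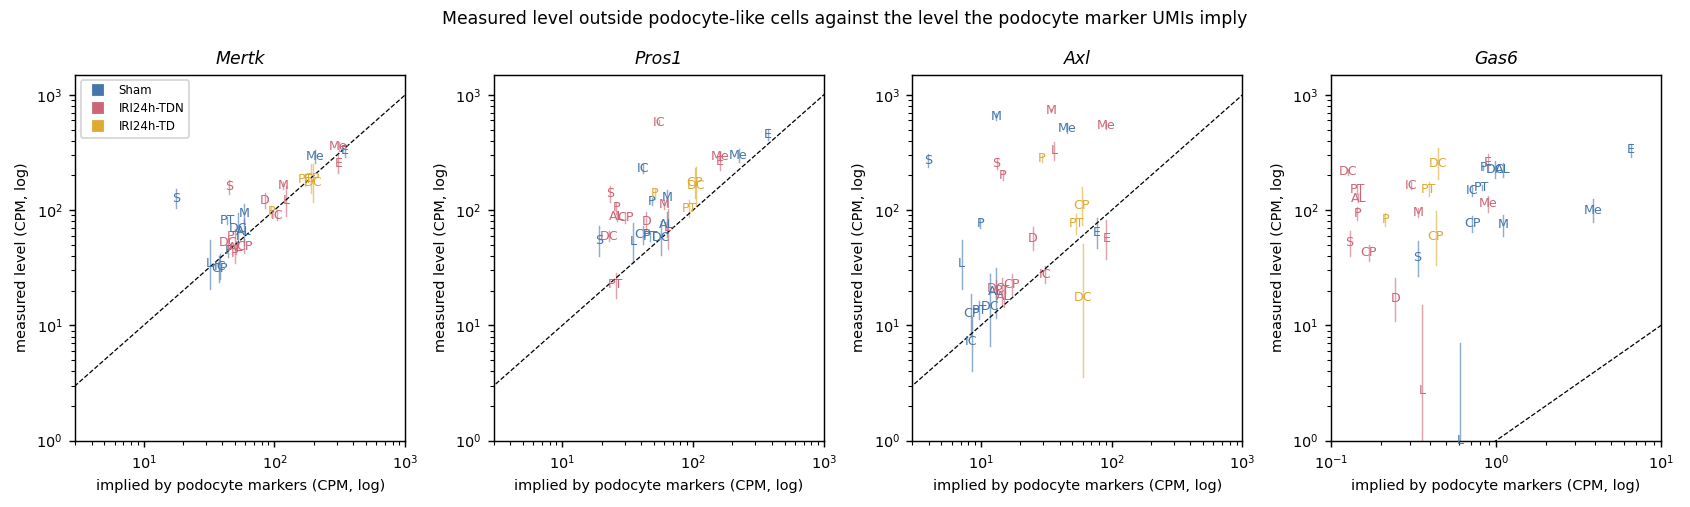
Measured level against the level implied by podocyte markers (both CPM, log axes) for Mertk, Pros1, Axl and Gas6, with a letter for each class or segment outside the podocyte-like class, coloured by library, exact Poisson 95% intervals as lines and equality dashed. P is parietal-like, M macrophage-like, D monocyte and dendritic-like, L lymphocyte-like, E endothelial-like, Me mesangial and pericyte-like, S smooth muscle and renin-like, PT proximal tubule-like, AL ascending limb-like, DC distal convoluted tubule-like, CP connecting tubule and principal-like and IC intercalated-like. Mertk lies within 2-fold of the line except in S, Pros1 is farthest above it in IC (579 CPM in IRI24h-TDN), Axl is farthest above it in M, S, Me, P and L, and Gas6 lies above it in all but the Sham lymphocyte-like sum.

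Counted against the background of all genes, the members shared no direction. In podocyte-like cells, of the 5 members, Axl was at least 2-fold higher in IRI24h-TDN and the other 3 besides Gas6 lay within 2-fold. Gas6 was at least 2-fold lower, at the low levels of 18.1 CPM in Sham and 4.40 CPM in IRI24h-TDN. The same limit was passed upwards by 3.84% and downwards by 8.69% of the 12233 genes with at least 50 UMIs over both libraries. In parietal-like cells 4 members had enough UMIs, and again Axl was higher and Gas6 lower, with a background of 5.78% higher and 10.2% lower. All 4 members with enough UMIs lay within 2-fold in macrophage-like cells (background 13.7% higher, 5.03% lower, or 1139 and 418 genes, which TMM scaling turned into 617 and 736), in mural-like cells (3.2% and 3.28%) and in endothelial-like cells (4.32% and 7.78%). In tubule-like cells Pros1 was the 1 of 5 members past the limit, upwards, where 11.4% of genes were at least 2-fold higher and 12.8% lower.

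**Figure D4:**
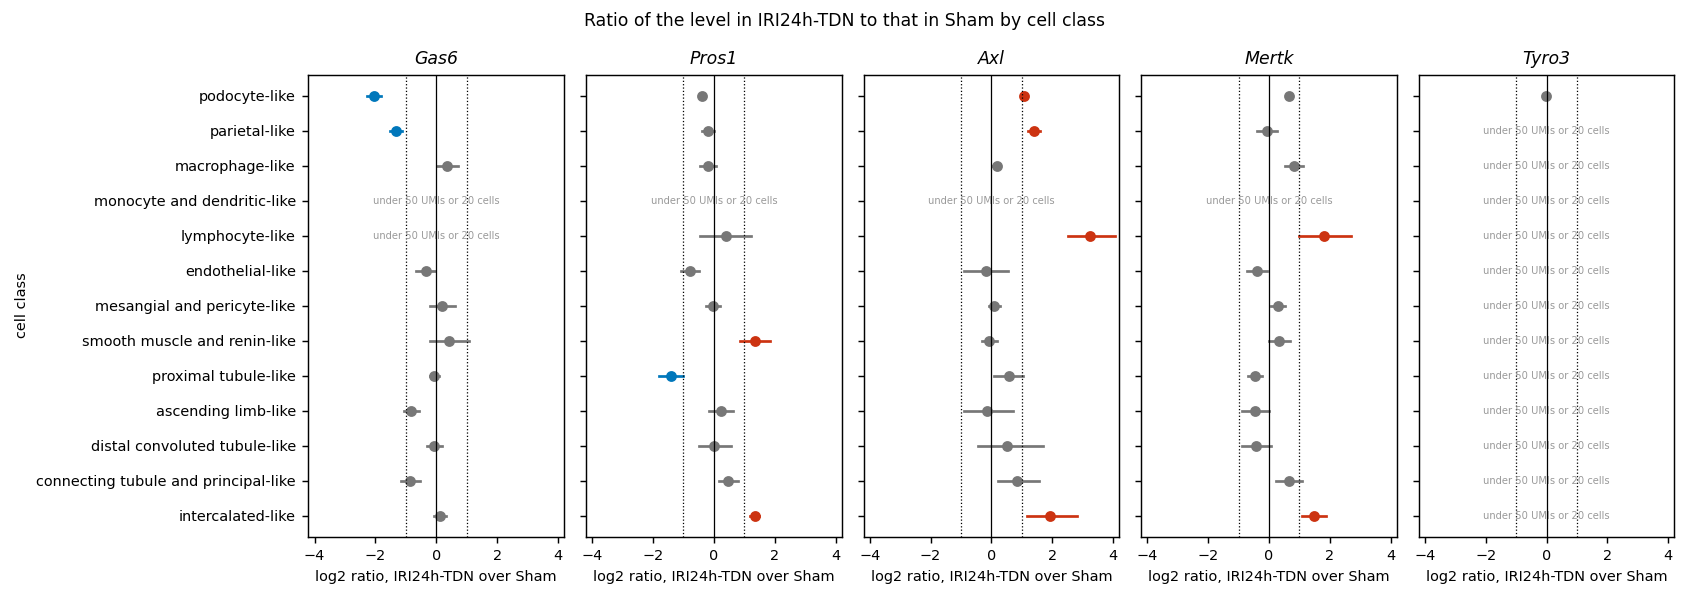
Log2 ratio of the level in IRI24h-TDN to that in Sham by cell class, with exact binomial 95% intervals; dotted lines mark 2-fold, red points lie above it, blue points below it, and grey text marks classes with under 50 UMIs of the gene or under 20 cells in a library. Gas6 lies to the left in podocyte-like and parietal-like cells (-2.04 and -1.33), where Axl lies to the right (1.07 and 1.39), and Pros1 lies to the right in intercalated-like cells (1.34).

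The 2 IRI libraries, which differ in the sort, gave close levels in podocyte-like cells. The log2 ratio of IRI24h-TD to IRI24h-TDN was 0.03 for Axl, -0.04 for Mertk, 0.02 for Pros1, 0.11 for Tyro3 and -0.40 for Gas6. In that comparison 0.123% of genes were at least 2-fold higher in IRI24h-TD and 1.76% lower. In parietal-like cells Mertk was 2.31-fold higher in IRI24h-TD (1.85 to 2.91), where 0.837% of genes were at least 2-fold higher and 0.7% lower, and the implied level went from 49.9 to 94.2 CPM with it.

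Read within single cells, the receptors and protein S were often found together in podocyte-like cells. After thinning, 29.8% of podocyte-like cells in Sham had UMIs of both Mertk and Axl, as did 59.3% in IRI24h-TDN and 60.2% in IRI24h-TD. UMIs of both Mertk and Pros1 were found in 72.2%, 75.8% and 76.3%. Axl together with Gas6 was found in 1.48%, 0.550% and 0.471% of podocyte-like cells, and in 6.68%, 4.86% and 7.62% of parietal-like cells. These shares follow from the level of each gene as well as from any pairing.

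The genes whose pattern was most like that of each member were found by the correlation of log2(CPM + 10) over 19 class-by-library sums and 7884 genes, as a description over sums that share libraries and podocyte RNA. For Mertk they were Cdkn1c (Pearson r = 0.99), Nell2 (0.98) and Colec12 (0.98), of which Cdkn1c was among the podocyte markers. For Pros1 they were Adcy1 (0.97), Optn (0.96) and Fam114a1 (0.96), and for Tyro3 Arhgef18 (0.95), Gabrb1 (0.95) and 4921504A21Rik (0.94). Gas6 was most like Stard8 (0.92), Trim47 (0.91) and Slc12a7 (0.89). Axl, read in macrophage-like, mural-like and podocyte-like cells at the same time, had no gene as close: Rnf150 (0.78), Ranbp2 (0.76) and Maff (0.76). Between members r was 0.90 for Pros1 and Mertk, 0.91 for Pros1 and Tyro3, 0.88 for Tyro3 and Mertk, and -0.33 for Gas6 and Axl.

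The other genes of the pathway were taken from fixed lists. Among the other ligands of Mertk, Lgals3, the gene of galectin-3, was at least 2-fold higher in IRI24h-TDN in all 6 main classes, except that in macrophage-like cells the log2 ratio of 1.23 was 0.92 with TMM scaling. It went from 112 to 983 CPM in parietal-like cells, from 228 to 1111 CPM in tubule-like cells, from 233 to 546 CPM in macrophage-like cells and from 4.75 to 24.3 CPM in podocyte-like cells. Over the libraries it was highest in monocyte and dendritic-like cells (1848 CPM). Implied levels were computed from podocyte markers only. Whether RNA of other classes was carried into these values, or into those of the genes below, was not tested. Tub and Tulp1 were hardly read (at most 1.81 CPM over the libraries in any class).

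Of the 16 other bridging molecules and phosphatidylserine receptors, 10 had enough UMIs in podocyte-like cells, where 3 were higher (C1qa, C1qc and Havcr1) and 3 lower (Lrp1, Cd36 and Megf10), beside 3.84% and 8.69% of all genes, and these 6 had levels of at most 6.15 CPM in either library. In parietal-like cells 4 of 8 were higher and 2 lower, and in tubule-like cells 6 of 10 were higher and 1 lower, beside 5.78% and 10.2% of all genes in the first class and 11.4% and 12.8% in the second. C1qb and C1qc, macrophage markers, were among the higher genes in both classes (2.35 to 17.7 CPM and 2.90 to 19.96 CPM in parietal-like cells). Havcr1, the injury molecule KIM-1 by which tubule cells take up dying cells, was 9.96 CPM in Sham and 365 CPM in IRI24h-TDN in parietal-like cells and 3.69 and 352 CPM in tubule-like cells. Mfge8, a bridging protein to integrins, went from 74.8 to 184 CPM and from 37.9 to 164 CPM in the same classes. In macrophage-like cells, where 13.7% of all genes were higher and 5.03% lower, 3 of 9 were higher and none lower, with either scaling: Cd36 (553 to 1404 CPM), Stab1 (189.96 to 509.7 CPM) and Lrp1 (29.5 to 87.7 CPM). C1qa, C1qb and C1qc of complement component C1q, which were among the markers naming the class, were within 2-fold there (1872 to 2922 CPM for C1qa). Cd36 was lower in tubule-like cells (443 to 30.3 CPM) and in endothelial-like cells (294 to 70.6 CPM).

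Vitamin K-dependent carboxylation, which Gas6 and protein S need to bind phosphatidylserine, was read through Ggcx, the carboxylase, and the reductases Vkorc1 and Vkorc1l1. None of the 3 passed the limit in podocyte-like cells (median log2 ratio -0.49, against -0.06 over all genes tested there). Ggcx was lower in parietal-like cells (21.2 to 6.53 CPM) and in tubule-like cells (28.6 to 7.44 CPM). Of the proteases that shed TAM receptors, Adam10 went from 112 to 399 CPM in macrophage-like cells, and neither Adam10 nor Adam17 passed the limit in podocyte-like, parietal-like or tubule-like cells. Of the 5 genes of phosphatidylserine exposure, none passed it in podocyte-like cells (median -0.03), and the flippase Atp11a was lower in tubule-like cells (479 to 81.3 CPM).

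Of the engulfment machinery, 7 of 8 genes had enough UMIs in podocyte-like cells and none passed the limit (median 0.21). Rac1, the small GTPase of the phagocytic cup, went from 115 to 243 CPM in parietal-like cells and from 139 to 279 CPM in macrophage-like cells, where its log2 ratio was 0.70, within 2-fold, with TMM scaling. Among the genes through which the receptors damp cytokine signalling, Socs3 was higher in podocyte-like (178 to 460.2 CPM), macrophage-like (148 to 346 CPM), tubule-like (27.0 to 129.9 CPM) and endothelial-like cells (229 to 781 CPM), although in macrophage-like cells its log2 ratio of 1.23 was 0.92 with TMM scaling. Socs1 was lower in macrophage-like cells (30.4 to 7.64 CPM).

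**Figure D5:**
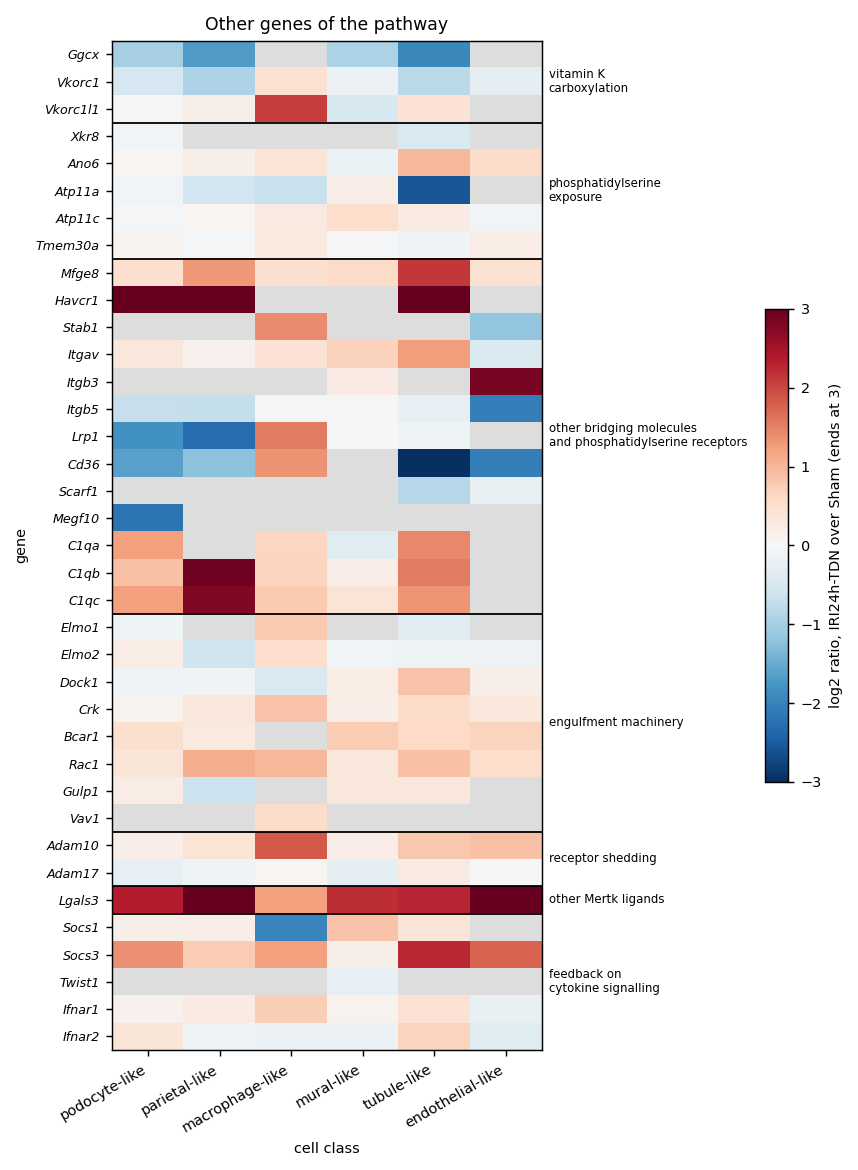
Log2 ratio of IRI24h-TDN to Sham (colour, cut at 3 in either direction) for the other genes of the pathway, in rows grouped by list, in 6 cell classes; grey marks under 50 UMIs over both libraries. Lgals3 is red in each class (under 2-fold in macrophage-like cells with TMM scaling), while Cd36 and Lrp1 are red in macrophage-like cells and blue in podocyte-like and parietal-like cells.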

How the data were processed

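Whole-number UMI counts per gene and barcode were deposited for each library. Per the labels the authors' processing used CASAVA 1.8, UMI-tools and Seurat with the mouse build mm10, and the settings of the counting are not given in the sources used here. No column was left unmapped to a sample.

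Barcodes with under 200 genes or over 50% mitochondrial UMIs were left out. Counts were scaled to 10000 UMIs per cell and logged, and 2000 variable genes, without the members and the genes of the pathway lists that are no markers, gave 30 principal components. A numpy 2.4.6 version of the Harmony procedure (theta 2) corrected these between libraries before Leiden clustering (leidenalg 0.10.2, igraph 0.11.9, 15 neighbours, resolution 1). A cluster was named when at least 3 of its markers were detected over all its cells and in each library with at least 20 of its cells, where the per-library part was added after the data were seen. One cluster of 876 shallow cells and the cluster led by fibroblast genes stayed unnamed. Doublets were scored against simulated pairs and kept, the study having excluded multiplets.

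UMIs were summed per class and library, since cells of a library are not replicates. CPM carry exact Poisson intervals, shares Clopper-Pearson intervals and ratios exact binomial intervals, all at 95% and for counting error only. Shares were also computed after thinning each cell to 2400 UMIs, leaving out shallower cells. A gene was called higher or lower past 2-fold with at least 50 UMIs over both libraries. With 1 library per condition there was no test. Ratios were checked on simulated data. edgeR 4.0.16 (R 4.3.3) was used only for TMM factors, as an alternative scaling. Other steps ran in Python 3.11.15 with pandas 2.3.3 and scipy 1.17.1, and gene positions are from GENCODE M21.

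The members and the pathway lists were chosen with earlier results of these data known. The 5 members are always named. Other genes are named as examples from the lists, those with the highest level or past the limit in most classes, and as the 3 genes most alike in pattern to each member. At most 4 examples per list were planned, and further names in the list of bridging molecules were added after their values were seen. One gene of the list on cytokine signalling is not reported here.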

Additional observations from a re-analysis of the deposited data

Results flagged for a closer look

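Pros1 had opposite directions in different cell types under the same contrast. Its log2 ratio of IRI24h-TDN to Sham was 1.34 in smooth muscle and renin-like cells (54.6 and 138 CPM) and -1.40 in proximal tubule-like cells (59.1 and 22.5 CPM), and the difference between these ratios was not tested. In the proximal tubule-like cells the implied levels from podocyte markers were 47.0 and 25.7 CPM, and in the smooth muscle and renin-like cells 19.2 and 23.2 CPM.

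Barcodes with over 50% mitochondrial UMIs entered none of the comparisons. In them Axl was 16.2 CPM in IRI24h-TDN and 5.63 CPM in Sham.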

How the results depend on the processing

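No paired analysis was possible because each condition had 1 library and the libraries carry no replicate numbers. All values here are log2 ratios of IRI24h-TDN to Sham unless another unit is named, and those with IRI24h-TD in its place, without a cluster, split by Wt1 or with 1 more gene in the clustering were chosen after the data were seen. The ratio of Axl in macrophage-like cells turned from 0.17 to -0.13 with TMM scaling and was 0.31 as a mean over cells. That of Axl in parietal-like cells turned from 1.39 to -0.38 without the correction between libraries, where other cells carried the name. It was 1.04 with at least 500 genes, 1.05 with at most 20% mitochondrial UMIs, 1.02 at resolution 2, 1.87 for IRI24h-TD, 0.98 with 1 more gene in the clustering, just within 2-fold, 1.81 without the cluster with proximal genes and 2.09 in cells without a Wt1 UMI. In the first 3 of these settings the class took in a cluster with 215, 209 and 220 Sham cells of cluster 8, and 52, 51 and 54 of IRI24h-TDN. At resolution 2 it also took in a cluster led by Krt5 and Krt15, with 29 cells and 44.4 CPM of Axl in IRI24h-TDN. Gas6 in parietal-like cells went from -1.33 to -0.71 without the correction, under 2-fold, to -1.91 with classes from each cell's own markers and to -1.71 in cells without a Wt1 UMI. Gas6 in podocyte-like cells went from -2.04 to -1.23 (500 genes), -1.40 (20% mitochondrial), -1.05 (no correction), -1.26 (resolution 2), -1.56 (own markers), -2.43 (IRI24h-TD), -1.25 (without the cluster with parietal genes) and -1.24 (1 more gene in the clustering), past 2-fold each time. Axl in podocyte-like cells was 1.11 (20% mitochondrial), 1.12 (no correction) and 1.2 (TMM) in place of 1.07. Mertk there, 0.66 in the report, was 0.63 with 500 genes, with 1 more gene in the clustering, with 20% mitochondrial UMIs, at resolution 2, without mitochondrial and ribosomal genes and without the cluster with parietal genes, 0.62 with no correction or IRI24h-TD, 0.59 by own markers, 0.69 as a mean over cells and 0.80 with TMM. Pros1 there, -0.40 in the report, was -0.45 with 500 genes, 1 more gene in the clustering, 20% mitochondrial UMIs, no correction, resolution 2 or without that cluster, -0.43 without mitochondrial and ribosomal genes, -0.27 with TMM and -0.38 for IRI24h-TD. Tyro3 lay on both sides of 0, with -0.19 by own markers, 0.11 with TMM and 0.0875 for IRI24h-TD. Gas6 in endothelial-like cells was -0.70 by own markers, and Pros1 in intercalated-like cells 1.19 with 20% mitochondrial UMIs in place of 1.34. Classes from own markers left 10110 of the 18458 podocyte-like cells with podocytes, and placed 3819 with fibroblasts, 2746 with tubule and 1491 with parietal cells. Of the 990 parietal-like cells, 749 stayed with parietal cells and 198 were placed with tubule. The level of Gas6 over the libraries in endothelial-like cells ranged from 191 to 368 CPM (301 CPM in the report), with 336 CPM without the correction. Thinning lowered the share of endothelial-like cells of IRI24h-TDN with a Gas6 UMI from 50% to 37.6%.

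The number of genes past 2-fold depended on the minimum of UMIs. Higher and lower genes numbered 470 and 1063 in podocyte-like cells with at least 50 UMIs, 834 and 2050 with at least 10 and 1093 and 2737 with no minimum. In parietal-like cells 605 and 1065 became 1006 and 1873, then 1655 and 2025. In mural-like cells 257 and 264 became 736 and 842, then 921 and 1479, and in endothelial-like cells 207 and 373 became 777 and 1179, then 1266 and 1627. In tubule-like cells 1431 and 1606 became 2305 and 3149 with no minimum. In macrophage-like cells 1139 and 418 became 1745 and 1929 with no minimum, 984 were lower with at least 10 UMIs, and TMM scaling gave 617 and 736. With 1 library per condition, neither the spread between animals nor that between libraries is known, and the intervals cover counting error only.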
